A study of Mus musculus with 36 samples.

Results

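Palmd and Nkx6-3 are 2 of the 39017 genes in a deposited count table of mouse pancreatic fibroblasts, and both were found by their symbol (ENSMUSG00000033377 and ENSMUSG00000063672). They were chosen by their counts in co-culture against mono-culture, where they were at 0 in fibroblasts cultured alone and high after co-culture, so their difference from mono-culture is given as a description with no test. The fibroblasts carry the C57BL/6 strain label. The table holds 36 RNA-seq libraries in 9 groups of 4. They are a mono-culture without tumour cells and 8 co-cultures of 48 h with a tumour sub-clone (Clone E, H, K, M, N, T or V) or with the line named KPC1, a name that the labels do not explain. Fibroblasts were separated from tumour cells by sorting on green fluorescent protein carried by the tumour cells. The labels give the same text for the mono-culture, so whether those cells also passed through the sorter is not stated. Nor do the labels say whether the 4 libraries of a group came from separate cultures, so p-values measure the spread between these libraries, which may be technical.

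Palmd encodes palmdelphin, a cytosolic member of the paralemmin family. The other paralemmins are phosphoproteins held at the plasma membrane by a lipid anchor that palmdelphin lacks. Nkx6-3 encodes a homeodomain transcription factor of the NK6 group, known from the epithelium of the distal stomach, where it acts in the differentiation of endocrine cells. Krt8 and Krt18 encode the partner keratins that form the intermediate filaments of simple epithelia, and neither belongs to the usual programme of a fibroblast.

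Palmd lies on chromosome 3 on the minus strand at chr3:116918258-116968987 (GRCm38, the assembly behind the build named in the labels), a span of 50730 bp with 4 annotated transcripts. Nkx6-3 lies on chromosome 8 on the plus strand at chr8:23153269-23158948, spans 5680 bp and has 1 annotated transcript of 3 exons. The 5′ end of Palmd overlaps 4930455H04Rik on the other strand, a gene with 0 counts in mono-culture and 16 counts in total over the 32 co-culture libraries. The library kit marks strand, but whether the counting used it is not stated, so reads in that overlap cannot be assigned with certainty. The nearest annotated gene below Palmd, Frrs1 (a ferric chelate reductase), was present in mono-culture at 29.3 ± 1.78 CPM (SD, n = 4; CPM is counts per 1e6 counts of the library, scaled between libraries) and averaged 30.5 to 78.3 CPM in the co-cultures. The nearest below Nkx6-3, Ank1 (an ankyrin, which links the membrane to the spectrin skeleton), was likewise present in mono-culture, at a mean of 10.3 CPM, and averaged 14.2 to 21.99 CPM in the co-cultures.

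Total counts per library ran from 12532122 to 21985538, with a median of 18001907, and those of the 4 mono-culture libraries from 12577931 to 20727926. Within lines the level of neither gene followed the library total (r = -0.048 for Palmd and 0.035 for Nkx6-3 over the 32 co-culture libraries, as a description). The fibroblast label was checked against 14 marker genes, all of which passed the count filter. Their summed level was 21517 to 23413 CPM in mono-culture and 12280.0 to 32549 CPM in the co-cultures. Of 20 epithelial markers, 13 passed the filter, and their summed level over all 20 was 3.80 to 5.39 CPM in mono-culture and 22.5 to 892 CPM in the co-cultures. Genes that define epithelial identity were split. Cldn6, Krt8, Krt18 and Krt19 were called higher than in mono-culture in all 8 co-cultures (edgeR, as below) and Cdh1 in 6, whereas Epcam never exceeded 6 counts in a co-culture library, Cldn7 and Dsp never exceeded 7, Esrp1 3 and Cldn4 2. The part of these markers in the levels of Palmd and Nkx6-3 was not tested. In bulk libraries a larger number of cells that carry an RNA and more of that RNA per cell cannot be told apart.

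**Figure D1:**
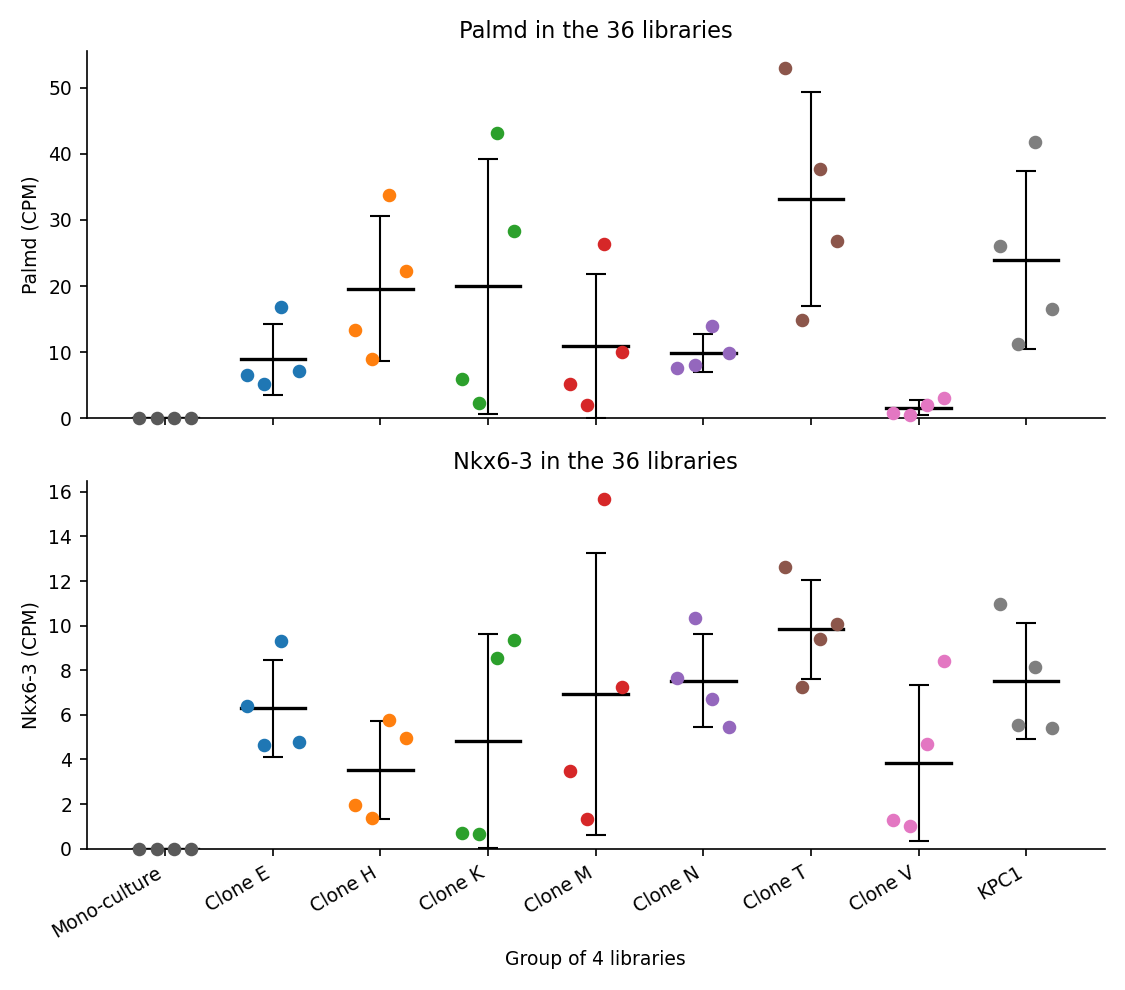
Level of Palmd (top) and Nkx6-3 (bottom) in CPM on a linear axis, 1 point per library in replicate order, with the mean (bar) and SD (whiskers) of the 4 libraries of each group. Both genes were at 0 in mono-culture, and Palmd was lowest with Clone V at 1.59 CPM, whereas the mean of Nkx6-3 ran from 3.52 to 9.84 CPM.

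Palmd had 0 counts in all 4 mono-culture libraries. A count of 3, the limit that 0 allows, corresponds to 0.137 to 0.228 CPM in those libraries, and this limit covers counting error only. The 32 co-culture libraries held 11 to 943 counts. With Clone T the gene stood at 52.9, 14.9, 37.7 and 26.9 CPM in replicates 1 to 4, a mean of 33.1 ± 16.2 (SD, n = 4) and at least 145-fold above the highest mono-culture limit. With KPC1 it stood at 26.1, 11.3, 41.8 and 16.6 CPM, a mean of 23.9 ± 13.4 (SD, n = 4), or at least 105-fold. These were the highest group means, and their libraries overlapped.

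With Clone K the libraries were far apart at 5.98, 2.34, 43.2 and 28.3 CPM, a mean of 19.9 ± 19.3 (SD, n = 4), or at least 87.5-fold above the limit. With Clone H they were at 13.3, 8.94, 33.8 and 22.3 CPM, a mean of 19.6 ± 10.98 (SD, n = 4), or at least 86.0-fold. In both lines the libraries numbered 3 and 4 exceeded those numbered 1 and 2. With Clone M they were at 5.21, 1.94, 26.4 and 10.1 CPM, a mean of 10.9 ± 10.9 (SD, n = 4), or at least 47.8-fold. Replicate 3 carried much of the mean with Clones K and M, which without it was 12.2 CPM with Clone K (at least 53.5-fold) and 5.74 CPM with Clone M (at least 25.2-fold). With Clone N they were at 7.61, 8.01, 14.0 and 9.92 CPM, a mean of 9.89 ± 2.93 (SD, n = 4), or at least 43.4-fold. Clone N thus had the narrowest range of the 8 lines, 1.84-fold between its lowest and highest library, against 18.5-fold with Clone K. With Clone E the libraries were at 6.51, 5.13, 16.8 and 7.21 CPM, a mean of 8.91 ± 5.33 (SD, n = 4), or at least 39.1-fold. With Clone V they were at 0.814, 0.529, 1.96 and 3.05 CPM, a mean of 1.59 ± 1.15 (SD, n = 4), or at least 6.97-fold. Taken alone, the lowest library of a line was at least 2.32-fold above the limit with Clone V, at least 8.52-fold with Clone M and at least 65.3-fold with Clone T. The Clone V libraries lay below every library of Clones E, H, N and T and of KPC1, and overlapped the lowest libraries of Clones K and M.

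Nkx6-3 also had 0 counts in all 4 mono-culture libraries, and 10 to 274 counts in a co-culture library. With Clone T it stood at 12.6, 7.25, 9.39 and 10.1 CPM, a mean of 9.84 ± 2.22 (SD, n = 4), or at least 43.1-fold above the mono-culture limit. With Clone N it stood at 7.66, 10.3, 6.71 and 5.44 CPM, a mean of 7.54 ± 2.08 (SD, n = 4), or at least 33.1-fold. With these lines, and with Clone E and KPC1, the libraries of a group lay within 1.74-fold to 2.02-fold of each other. With KPC1 it stood at 10.96, 5.55, 8.13 and 5.41 CPM, a mean of 7.51 ± 2.62 (SD, n = 4), or at least 32.9-fold. With Clone E it stood at 6.41, 4.65, 9.32 and 4.78 CPM, a mean of 6.29 ± 2.17 (SD, n = 4), or at least 27.6-fold.

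The other lines were more uneven. With Clone M Nkx6-3 stood at 3.47, 1.34, 15.7 and 7.23 CPM, a mean of 6.93 ± 6.33 (SD, n = 4), or at least 30.4-fold, and its replicate 3 was the highest of the 36 libraries. Without that library the mean was 4.01 CPM (at least 17.6-fold). With Clone K it stood at 0.707, 0.65, 8.56 and 9.35 CPM, a mean of 4.82 ± 4.79 (SD, n = 4), or at least 21.1-fold. As for Palmd, the libraries numbered 1 and 2 were the low ones with this clone. With Clone V it stood at 1.27, 1.01, 4.68 and 8.43 CPM, a mean of 3.85 ± 3.48 (SD, n = 4), or at least 16.9-fold, and without replicate 4 a mean of 2.32 CPM (at least 10.2-fold). With Clone H it stood at 1.98, 1.36, 5.78 and 4.97 CPM, a mean of 3.52 ± 2.18 (SD, n = 4), or at least 15.4-fold. Its lowest single library, with Clone K, was at least 2.85-fold above the limit. All 8 groups overlapped with at least one neighbour in the order, and the highest library with Clone V exceeded the lowest with Clone T.

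The spread within a line was large for both genes. The SD of log2 CPM about the line means was 1.13 for Palmd and 1.14 for Nkx6-3, against a median of 0.23 over the 14439 genes tested, and 2.51% and 2.44% of the tested genes had a larger one. Krt8 and Krt18 varied as much, with SDs of 1.08 each. The libraries numbered 2 were the lowest of their line for Palmd in 7 of 8 lines, for Nkx6-3 in 6, and for Krt8 and Krt18 in 7 each. Those numbered 3 were the highest for Palmd in 6 lines. The labels do not say what libraries of the same number have in common.

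Whether the level of either gene depended on the clone was then asked, a comparison that did not enter the choice of the genes. Across the 7 clones Palmd differed (adjusted p = 0.00148, edgeR quasi-likelihood F-test with Benjamini-Hochberg adjustment), as did 67.5% of the genes tested. Nkx6-3 did not pass the same test (adjusted p = 0.388, edgeR). Against the mean of the 7 clones, KPC1 was higher in Palmd by 1.12 on the log2 scale (SE 0.477), with an adjusted p of 0.0603 (edgeR), while 41.1% of the genes passed. This was close to the threshold of 0.05 and fell below it when any of 6 single libraries was left out (replicate 3 of Clone E, H, K or M, replicate 4 of Clone V or replicate 2 of KPC1, with adjusted p from 0.0246 to 0.0465), whereas without KPC1 replicate 3 the difference was 0.72 (adjusted p = 0.324). With replicate number as a block the difference in Palmd was 1.18 and passed (adjusted p = 0.00391, edgeR). For Nkx6-3 the difference of KPC1 from the mean of the clones, without a block, was 0.38 (SE 0.505, adjusted p = 0.578, edgeR).

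**Figure D2:**
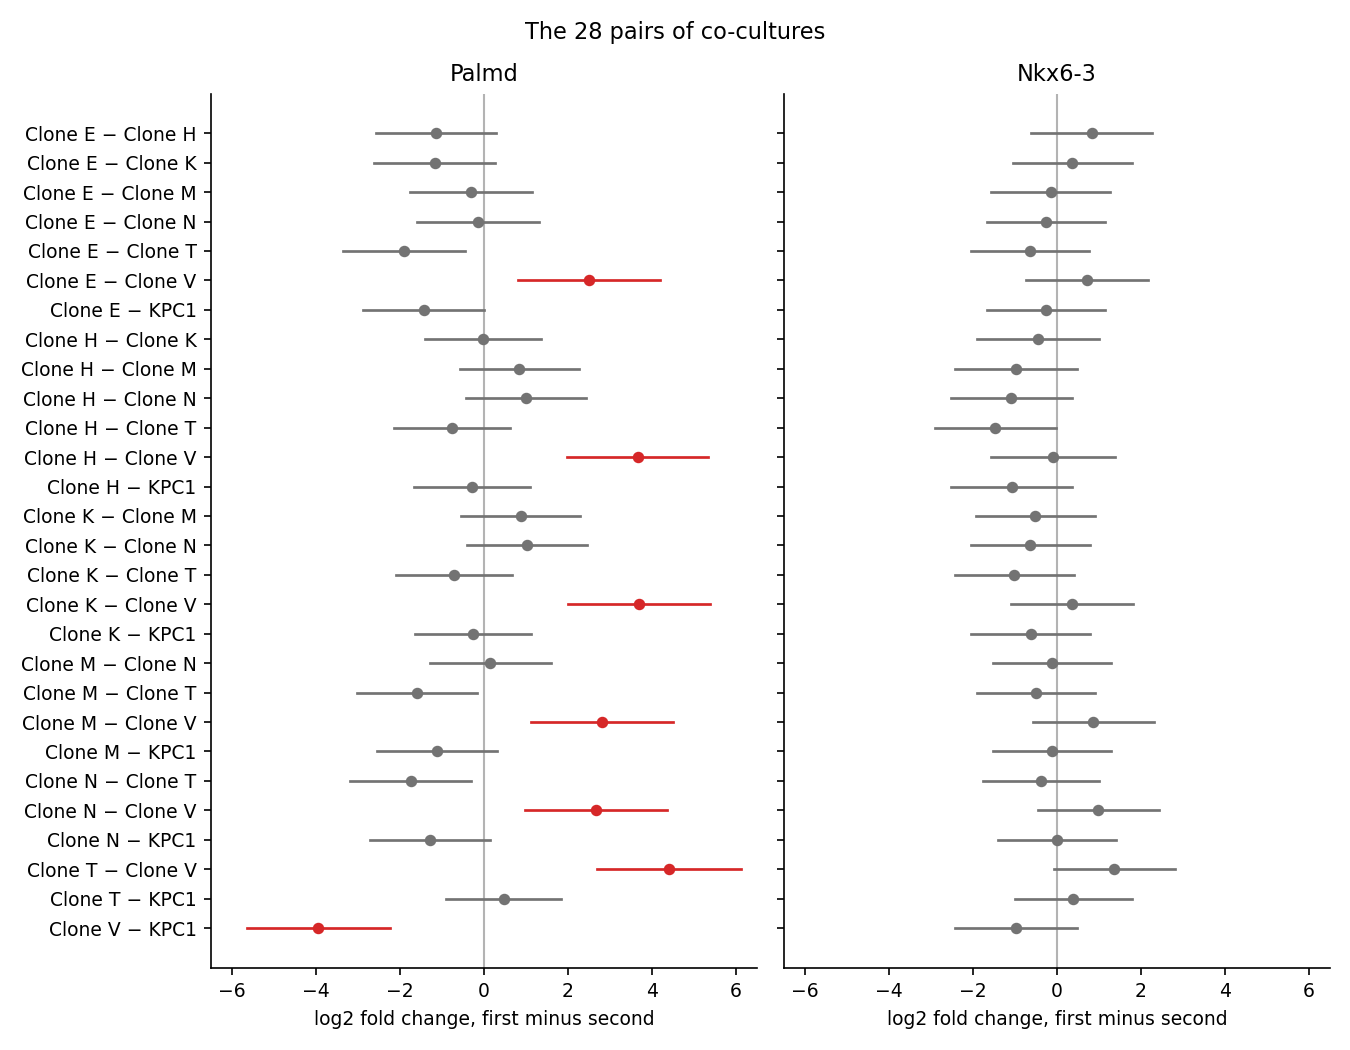
Fitted log2 fold change between each of the 28 pairs of co-cultures, first minus second, for Palmd (left) and Nkx6-3 (right), with 95% intervals. Red marks an adjusted p under 0.05. The 7 red pairs all hold Clone V and are all in Palmd.

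Of the 28 pairs of co-cultures, Palmd passed the test in 7, which are the 7 that hold Clone V, while 27.5% of the tests over all genes and pairs passed. Over all genes 33.4% of the tests passed in the 7 pairs with Clone V and 25.5% in the other 21, in which Palmd passed none in this fit. At an unadjusted p under 0.05, 10 of the 28 pairs passed, and DESeq2 also called 7. The differences from Clone V ran from 2.51 on the log2 scale with Clone E (SE 0.824, 95% interval 0.82 to 4.20, adjusted p = 0.0158, edgeR), a pair in which 42.2% of the genes passed, to 4.41 with Clone T (SE 0.833, 95% interval 2.70 to 6.12, adjusted p = 0.000520, edgeR), where 24% passed. Between them lay Clone N at 2.67, Clone M at 2.82, Clone K at 3.69 and KPC1 at 3.94, with adjusted p from 0.000449 to 0.0105 (edgeR), in pairs where 43.5%, 57.9%, 54.8% and 10.7% of the genes passed. The pair of Clone H and Clone V showed a difference of 3.66 with an adjusted p of 0.0403 (edgeR), in a comparison where only 0.388% of the genes passed. That call was lost in 12 of 45 alternative fits, with an adjusted p of at most 0.179. Those 12 include leaving out replicate 1, 3 or 4 of Clone H, replicate 1, 2 or 3 of Clone V, replicate 1 or 4 of Clone N, and replicate 3 or 4 of Clone T. The call between Clone E and Clone V was lost without Clone E replicate 3 and without Clone V replicate 1 or 2, and by limma on log2(RPKM + 1) (adjusted p = 0.0576), and that between Clone M and Clone V without Clone M replicate 3.

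In the order of mean Palmd levels, which ran T, KPC1, K, H, M, N, E and V, the one pair of neighbours that differed beyond its error was thus E and V, with the exceptions just given. Of the pairs without Clone V, the smallest adjusted p was 0.0690, between Clones M and T (log2 difference -1.60, 95% interval -3.03 to -0.16, edgeR), a pair in which 40.5% of the genes passed. That pair passed by limma on log2(RPKM + 0.1) and on log2(RPKM + 1) (adjusted p = 0.0306 and 0.0249), without Clone K replicate 2 (0.0467) and without Clone M replicate 3 (0.0105), and at a threshold of 0.1, where Clones E and T passed too (0.0803). Without Clone M replicate 3 the pair of Clone M and KPC1 also passed (adjusted p = 0.0229). With replicate number as a block, 14 pairs passed, 7 of them without Clone V, among them Clones M and T (adjusted p = 0.00146, edgeR). Clone T then lay above Clones E, K, M and N, and KPC1 above Clones E, M and N. In the fit without a block the intervals of single pairs were wide, with a median half-width of 1.43 on the log2 scale. A pair that did not pass there is therefore not shown to be equal.

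Nkx6-3 passed in none of the 28 pairs (edgeR), in 1 at an unadjusted p under 0.05 and in none by DESeq2. Its order of means was T, N, KPC1, M, E, K, V and H, and no neighbours in it differed beyond their error. The largest difference was between Clones H and T, at -1.47 on the log2 scale (95% interval -2.92 to -0.03, adjusted p = 0.215, edgeR), where 7.58% of the genes passed. Without Clone V replicate 4, the highest of that line, the pair of Clones T and V passed with a log2 difference of 2.09 (adjusted p = 0.048, edgeR). With all 4 libraries of Clone V the same pair differed by 1.37 (95% interval -0.08 to 2.81).

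**Figure D3:**
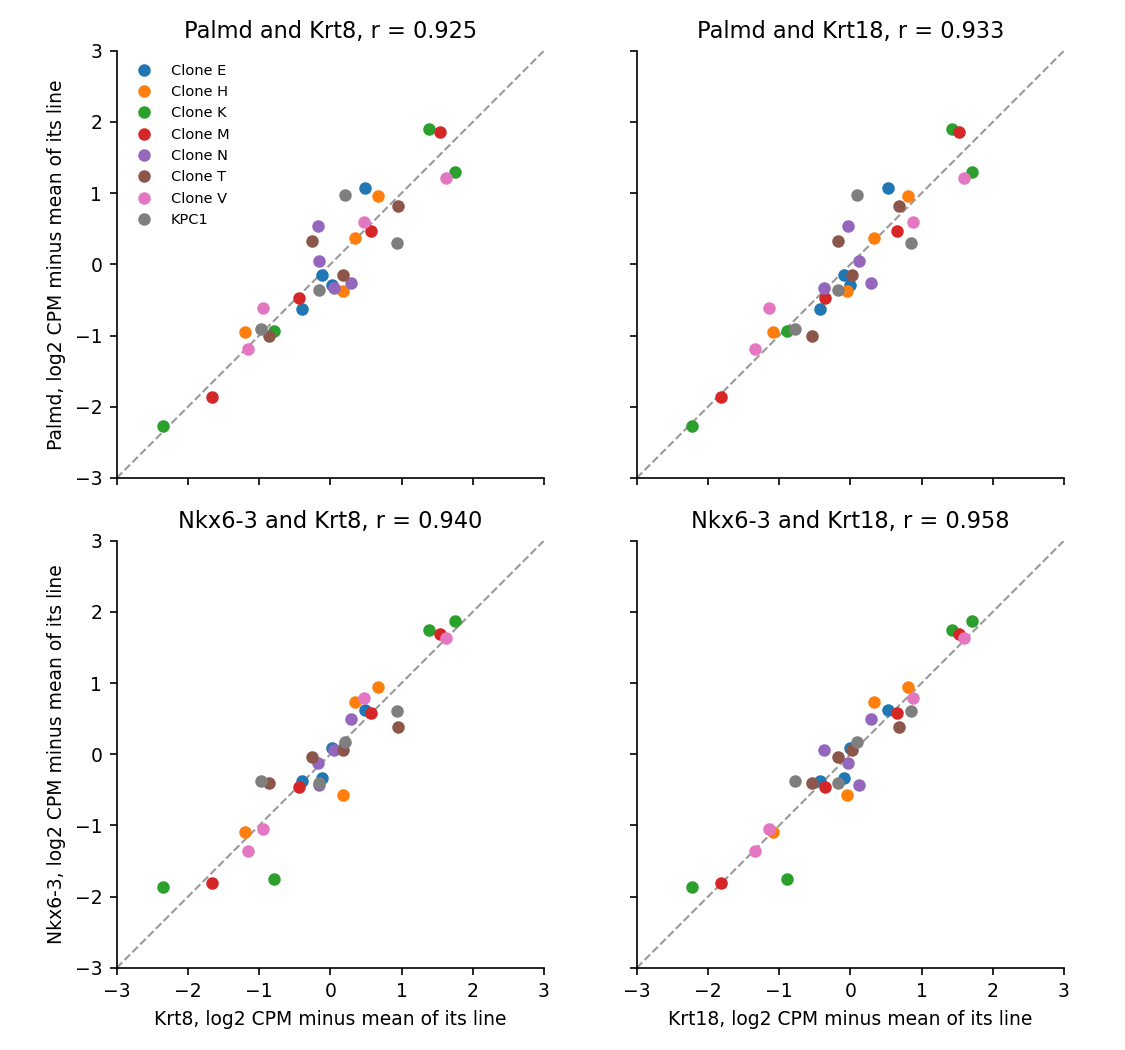
Palmd (top) and Nkx6-3 (bottom) against Krt8 (left) and Krt18 (right) in the 32 co-culture libraries, each as log2 CPM minus the mean of its line, coloured by line; the dashed line marks equal deviations. The points follow the dashed line in all 4 panels, with r from 0.925 to 0.958.

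Among the libraries of a line, Palmd and Nkx6-3 went up and down with the keratins. After the mean of each line was removed, Palmd correlated with Krt8 at r = 0.925 and rho = 0.899 and with Krt18 at r = 0.933 and rho = 0.920 over the 32 libraries. Nkx6-3 correlated with Krt8 at r = 0.940 and rho = 0.925 and with Krt18 at r = 0.958 and rho = 0.925. Libraries were permuted within lines (100000 permutations, two-sided), and each of these r had a permutation p of 1e-05, the smallest these permutations can give, and an adjusted p of 1.29e-05 over 9 relations. The permutation p of the rho values was 1e-05 or 2e-05 (adjusted 1.8e-05 or 2.57e-05). The relation to the keratins was named when the genes were chosen, with earlier results of these data known. Its p-values are therefore not an independent test. Without the 2 libraries farthest from the median of the keratin, r was 0.906 and 0.891 for Palmd and 0.932 and 0.947 for Nkx6-3.

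The slopes were close to 1. Per unit of log2 Krt18, Palmd changed by 0.97 (SE 0.078) and Nkx6-3 by 1.01 (SE 0.063), and per unit of log2 Krt8 by 0.96 (SE 0.082) and 0.99 (SE 0.075). The library with the most Krt18 was also that with the most Nkx6-3 in 8 of 8 lines and with the most Palmd in 5, and the library with the least Krt18 had the least Palmd in 8 and the least Nkx6-3 in 6. The order of all 4 libraries was the same as for Krt18 in 6 lines for Nkx6-3 and in 3 for Palmd. The lines in which Palmd and Krt18 peaked in different libraries were among those where replicate 3 held the most Palmd.

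The same held for the sum of the other 18 epithelial markers, with r = 0.934 for Palmd and 0.936 for Nkx6-3 (permutation p = 1e-05, adjusted p = 1.29e-05). The abundant markers weigh most in this sum, and single markers differed in their r with Palmd. It was 0.956 for Cldn6, 0.876 for Krt19 and 0.863 for Spint2, but 0.385 for Cldn3, 0.381 for Lcn2 and -0.150 for Spint1, as a description with no test. Palmd and Nkx6-3 correlated with each other at r = 0.912 (rho 0.901, adjusted permutation p = 1.29e-05). Both genes were chosen together and each followed the keratins. Neither this p-value nor those of the epithelial sum are therefore an independent test. With the sum of the 14 fibroblast markers, r was -0.280 for Palmd and -0.292 for Nkx6-3 (rho -0.277 and -0.327), and neither passed (permutation p = 0.2504 and 0.269, adjusted p = 0.269 for both). Col1a1, Col1a2, Col3a1 and Vim weigh most in this sum, with means of 7264, 5619, 5165 and 2482 CPM in mono-culture. Single markers differed in sign, with r with Palmd from -0.625 for Tagln to 0.536 for Vim, as a description with no test. The sum therefore does not stand for each marker. The keratins and the other epithelial markers come from the same libraries as Palmd and Nkx6-3, and their part in the spread of both genes was not tested.

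**Figure D4:**
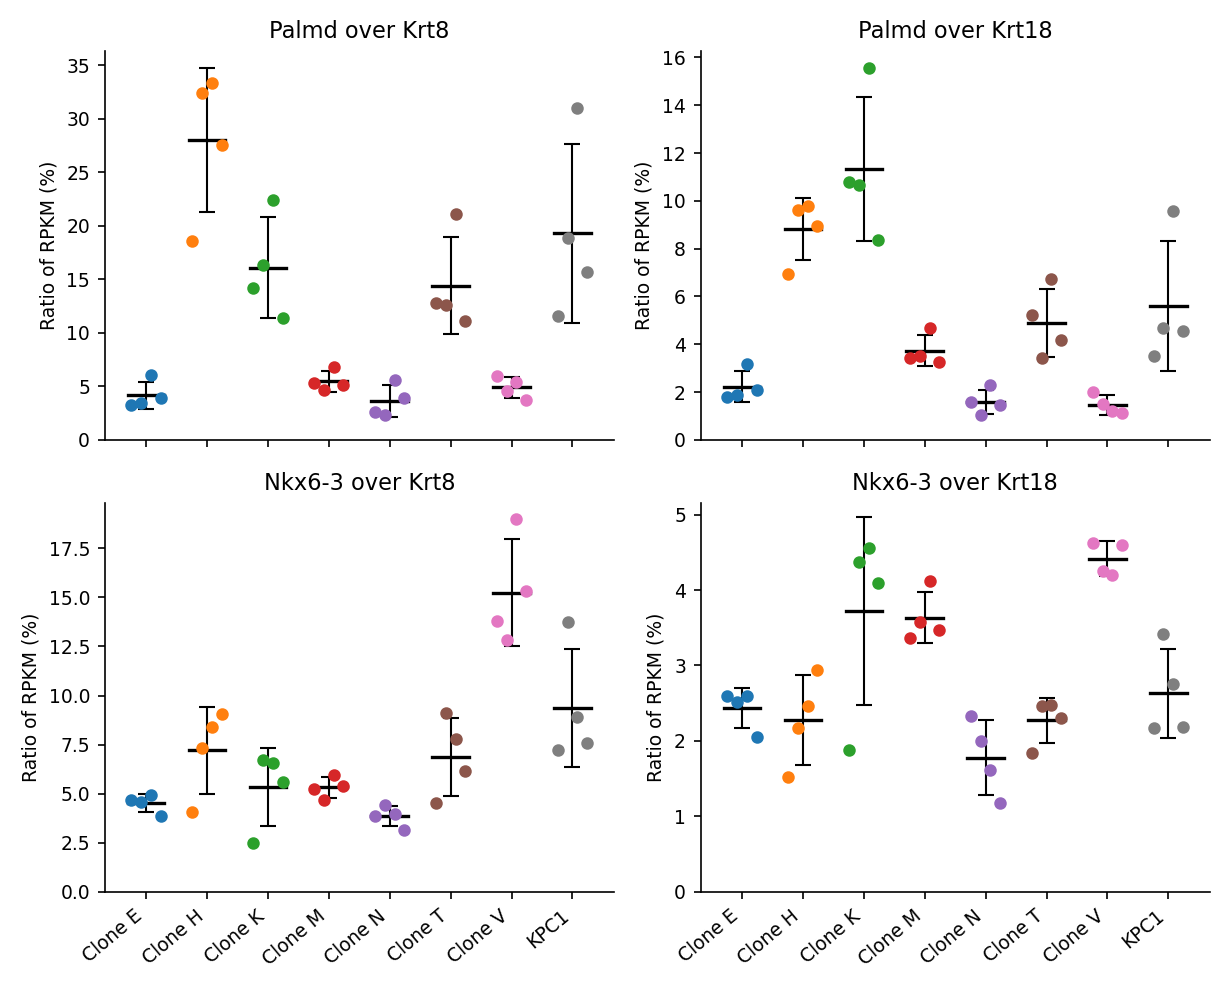
Ratio of the deposited RPKM of Palmd (top) and Nkx6-3 (bottom) to that of Krt8 (left) and Krt18 (right), in percent, 1 point per co-culture library, with the mean (bar) and SD (whiskers) of 4. Clone V is among the lowest in Palmd over Krt18 (1.46%) and the highest in Nkx6-3 over Krt18 (4.42%).

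Although both genes followed the keratins within a line, their proportion to the keratins differed between lines. The proportion of Krt18 to Krt8 varied between lines as well, as given below. On the per-length scale of RPKM, Palmd was 11.3% ± 3.02 of Krt18 with Clone K and 8.82% ± 1.3 with Clone H (SD, n = 4 each). It was 5.58% ± 2.72 with KPC1, 4.89% ± 1.44 with Clone T and 3.73% ± 0.656 with Clone M. The lowest were 2.23% ± 0.636 with Clone E, 1.58% ± 0.514 with Clone N and 1.46% ± 0.402 with Clone V. The libraries of Clones K and H, from 6.94% to 15.6%, lay above every library of Clones E, M, N, T and V.

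The mean log2 ratio of counts, in which library depth cancels, ranged over 2.96 between the lines for Palmd over Krt18 (permutation of the 32 libraries over lines, p = 0.00018, adjusted p = 0.000253 over 4 ratios). For Palmd over Krt8 it ranged over 3.01 (permutation p = 0.00019, adjusted p = 0.000253). The RPKM ratio to Krt8 was highest with Clone H at 27.99% ± 6.74 and lowest with Clone N at 3.61% ± 1.49 (SD, n = 4). Clone V, the lowest over Krt18, was not the lowest here, at 4.92% ± 0.974, above Clone E at 4.15% ± 1.29 and Clone N (SD, n = 4).

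For Nkx6-3 the order of the lines was another. Its RPKM was 4.42% ± 0.227 of that of Krt18 with Clone V, 3.72% ± 1.24 with Clone K and 3.63% ± 0.338 with Clone M, each over 4 libraries (SD). It was 2.63% ± 0.587 with KPC1, 2.44% ± 0.265 with Clone E, 2.27% ± 0.596 with Clone H, 2.27% ± 0.296 with Clone T and 1.78% ± 0.499 with Clone N. The 4 libraries of Clone V, between 4.19% and 4.63%, were 1.10-fold apart although their Nkx6-3 levels spanned 8.34-fold. The log2 ratio of counts ranged over 1.36 between the lines (permutation p = 0.00064, adjusted p = 0.00064), and over 1.98 for Nkx6-3 over Krt8 (permutation p = 0.00016, adjusted p = 0.000253), where Clone V stood at 15.2% ± 2.71 and Clone N at 3.85% ± 0.523.

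The spread within lines was smaller for the ratios than for the levels. The SD of the log2 ratio to Krt18 was 0.40 for Palmd and 0.34 for Nkx6-3, and to Krt8 0.43 and 0.40, whereas the level of each gene had an SD of 1.13 or 1.14. The ratio of Krt18 to Krt8 had an SD of 0.20. Between lines its mean log2 ratio of counts ran from 0.13 with Clone K to 1.44 with KPC1, a difference that was not tested. The line differences in the ratios above therefore depend on which keratin is the denominator. Palmd over Nkx6-3, on the per-length scale, was 32.9% ± 8.31 with Clone V, where Palmd was the lower of the pair, and 400.4% ± 69.4 with Clone H (SD, n = 4), a difference given as a description with no test.

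Palmd and Nkx6-3 met a strict rule, exactly 0 counts in mono-culture and more than 3 counts in each co-culture library. This rule leaves out genes near 0 in mono-culture, such as Foxa2 with 1 count and Krt8 with 2 in total. Both were called higher in all 8 co-cultures. The number of genes that met the rule therefore does not show that the pattern is rare. Of the 18536 genes with 0 counts in the 4 mono-culture libraries, 59 passed the count filter and 6 had more than 3 counts in each of the 32 co-culture libraries. Among these were Cldn6, a tight junction claudin, at a mean of 17.6 CPM, Palmd at 15.99, Nkx6-3 at 6.29, Pdx1, the homeodomain factor of pancreas and duodenum, at 5.33, and Ccdc68 at 2.97 CPM. Of these 5 genes Palmd had the lowest mean with Clone V relative to its highest line, 1.59 against 33.1 CPM, whereas Cldn6 stood at 8.07 with Clone V and 38.9 with Clone T. As with Palmd, Pdx1 was lowest with Clone V, at 1.38 ± 1.17 CPM (SD, n = 4).

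**Figure D5:**
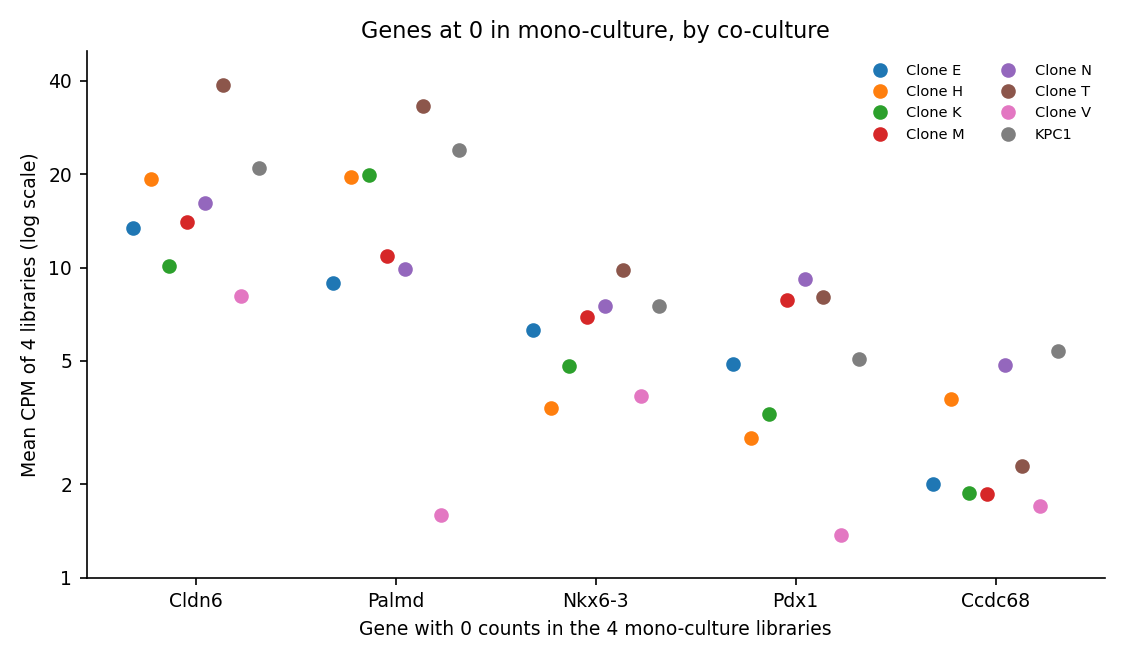
Mean CPM (log axis) of 4 libraries in each of the 8 co-cultures, for 5 genes that had 0 counts in mono-culture and more than 3 counts in every co-culture library. Clone V gives the lowest point for Cldn6, Palmd, Pdx1 and Ccdc68, and Clone H the lowest for Nkx6-3.

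The genes whose log2 CPM was most alike were ranked among 12500 genes with a mean of at least 1 CPM, as a description over libraries whose depth and scaling enter every gene alike. Over the 32 co-culture libraries Palmd was most like Clu, a secreted chaperone (r = 0.880), Eya1, a transcriptional coactivator (0.871), Elovl7, a fatty acid elongase (0.869), Rap1gap, an inactivator of the GTPase Rap1 (0.858), and Cldn6 (0.850). Krt18 ranked 34 at r = 0.750 and Nkx6-3 ranked 93 at r = 0.694. After line means were removed the leading genes were Myo5c, an epithelial myosin (0.964), Cldn6 (0.956), Cd24a, a surface glycoprotein (0.954), Clca1 (0.954) and Elovl7 (0.952), and Krt18 ranked 17.

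Nkx6-3 was most like Gm14137 (r = 0.935), Tuft1 (0.934), Cln3, a lysosomal membrane protein (0.932), Wfdc2, a secreted whey acidic protein (0.931), and Krt18 (0.930). Its leading genes within lines were Pitx1, another homeodomain factor (0.958), Krt18 (0.958), Ripk4, a kinase of epithelial differentiation (0.957), Cln3 (0.955) and Fam83g (0.953). Krt18 therefore stood at rank 5 before and rank 2 after the line means were removed. In mono-culture no library held more than 4 counts of Pitx1, Ripk4, Wfdc2 or Krt18, while Tuft1 was present there at 8.98 CPM and Cln3 at 1.11 CPM. The median r of all genes compared lay between -0.013 and -0.002 in the 4 rankings.

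In the paralemmin family the other genes did not share the pattern of Palmd. Palm, which encodes the founding paralemmin, was present in mono-culture at 157 ± 13.01 CPM (SD, n = 4) and averaged 118 to 182 CPM in the co-cultures. It was lower than in mono-culture in 2 of 8 co-cultures by edgeR, and in 5 without scaling beyond library size. Palm2 was low, at 0.628 CPM in mono-culture and 1.33 to 3.27 CPM in the co-cultures, and was higher in 8 of 8 under each of the scalings tried. Its locus is shared with Akap2, an anchoring protein for protein kinase A, which passed in none, so reads of this pair are uncertain. Palm3 never exceeded 9 counts in a co-culture library and did not pass the filter. For comparison, 3.42% of the tested genes were called higher in all 8 co-cultures and 42.3% lower in at least 1, and over the 8 comparisons together 21.4% of the tests were called higher and 20.4% lower.

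In the NK homeobox list, which holds 13 genes beside Nkx6-3, 4 passed the filter and 6 had 0 counts in all 36 libraries. Nkx6-1, of the NK6 group like Nkx6-3 and a factor of pancreatic beta cells, was present in mono-culture at 1.02 ± 0.307 CPM (SD, n = 4). It was higher in 5 of 8 co-cultures, with the highest mean of 4.99 CPM with KPC1. Nkx6-2, of the same group, never exceeded 3 counts in a co-culture library. Nkx2-3, a factor of gut and spleen mesenchyme, was the most abundant at 68.9 ± 3.83 CPM (SD, n = 4) in mono-culture and was lower in 6 of 8 co-cultures, reaching 25.7 CPM with Clone V. Nkx2-5 was lower in 1 and Nkx3-2 higher in 1. The share of all tested genes called higher in at least 1 co-culture was 44.3%.

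The setting of Nkx6-3 in the stomach was followed with 31 foregut and gastric genes, chosen with earlier results of these data known. Of these 14 passed the filter, 12 were called higher in at least 1 co-culture, 2 were called lower in at least 1, and 1 passed in neither direction. Over all genes tested, 44.3% were called higher and 42.3% lower in at least 1. These shares are no measure for the list, because the filter also keeps genes with counts in the co-cultures alone. Pdx1, Cdx2 and Hnf4a, at 0 counts in mono-culture, could not be called lower, whereas Gata4, Gata6 and Sox9 could. The listed genes higher in all 8 included Foxa2, a forkhead factor of endoderm, and Pdx1. Foxa2 had 1 count in mono-culture and averaged 2.41 CPM with Clone V and 13.8 with Clone N. Cdx2, the homeodomain factor of intestine, had 0 counts in mono-culture and was higher in 7 co-cultures, from 0.057 CPM with Clone V to 10.8 with Clone N. Hnf4a, also at 0 in mono-culture, was higher in 3, with a top mean of 3.51 CPM with Clone N. Gata4, Gata6 and Sox9 were present in mono-culture at 26.4, 57.8 and 44.7 CPM. Gata4 was lower in 6 co-cultures, and Gata6 was lower in 4 and higher in 2.

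The products of gastric epithelium were at or near 0 beside Nkx6-3. Tff1, Tff2, Gkn1, Gkn2 and Muc6, which encode secreted proteins of gastric mucus, and the stomach mesenchyme factor Barx1 had 0 counts in all 36 libraries. Gast, the hormone gene of antral G cells, never exceeded 3 counts in a co-culture library and had 6 counts in total in mono-culture. Sst never exceeded 2 counts in a co-culture library, Muc5ac and Ghrl 4, and Cldn18 13. Among the gastric genes that passed, Vsig1 was higher in 3 co-cultures, with means from 0.014 CPM with Clone V to 5.39 with Clone T, and the mucin gene Muc1 was higher in 3.

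Of the 20 epithelial markers, 13 were tested. Of these, 12 were called higher in at least 1 co-culture and 4 in all 8, namely Krt8, Krt18, Krt19 and Cldn6. Over all genes tested the shares were 44.3% and 3.42%, but they are no measure for this list. The filter also keeps genes with counts in the co-cultures alone, which can hardly be called lower. This holds for Cldn3 and Cldn6, at 0 counts in mono-culture, but not for Spint1 and Esrp2, at 119 and 84 in total. Krt8 had 2 counts in total in mono-culture and averaged 19.5 ± 17.7 CPM with Clone V and 156 ± 23.8 CPM with Clone N (SD, n = 4). Krt18 had 12 counts in total in mono-culture and averaged 54.2 ± 47.7 CPM with Clone V and 281 ± 105 CPM with Clone T (SD, n = 4). Both keratin genes have near-identical pseudogene copies, so their counts are uncertain in this respect. Palmd, Krt8 and Krt18 were thus all lowest with Clone V, whereas the lowest mean of Nkx6-3 was with Clone H. Of 6 endothelial markers 3 passed the filter, with 1 called higher and 1 lower in some co-culture, and their summed level never exceeded 6.39 CPM in any library. Of 5 immune markers counted, Cd68 alone passed the filter and was higher in 4 co-cultures, and Ptprc and Cd3e had at most 3 and 0 counts in a co-culture library. In the fibroblast list 7 of the 14 markers were higher and 8 lower in at least 1 co-culture, 1 of them in both directions, where 44.3% of all genes tested were higher and 42.3% lower.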

How the data were processed

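Poly(A) RNA was sequenced from sorted fibroblasts, with 200 ng of RNA, 14 cycles of amplification and 76-bp paired reads. Per the labels, STAR, featureCounts and edgeR were used with the mm10 build, and their versions, the annotation and the strand setting are not given in the sources used here. The authors deposited raw counts per gene for 39017 genes and RPKM values (scaled by gene length and library size) for 37746. The paper supplied does not describe this experiment, so the design was taken from the labels. The genes and all lists were chosen with earlier results of these data known.

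Counts of all 36 libraries were fitted with edgeR 4.0.16 (R 4.3.3) by the quasi-likelihood method with robust estimation, after filterByExpr on the 9 groups (14439 genes, both genes included) and TMM scaling, with Benjamini-Hochberg adjustment and a threshold of 0.05. The fit was also run on simulated data with independent libraries and the spread typical of a gene at its level. Palmd and Nkx6-3 spread more widely than most genes (biological coefficient of variation 0.674 and 0.675, median of those tested 0.146). The simulation may not cover that setting. CPM is counts over the library total times its TMM factor, and log2 CPM adds a prior count of 1. Folds over mono-culture are lower bounds against 3 counts in the mono-culture library where these weigh most in CPM. The 95% intervals use the total degrees of freedom of the fit. Relations used line-centred log2 CPM and 100000 permutations within lines. Ratios used counts for the test and RPKM for the printed percentages, whose values imply a gene length of 3299 bp for Palmd and 2234 bp for Nkx6-3. Beyond both genes and the keratins, the genes named were list members, the nearest annotated genes, the 5 genes most alike per measure, and the genes at 0 in mono-culture with over 3 counts in every co-culture library. Positions are from GENCODE M21. No 2 libraries of a group agreed within sampling noise (chi-square per degree of freedom of at least 5.53). Alternatives were other scalings, filters, thresholds and tools (DESeq2 1.42.0, limma 3.58.1 on log2 RPKM), a replicate block, and leaving out each library. A gene that met the rule is not reported here.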

Additional observations from a re-analysis of the deposited data

Results flagged for a closer look

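In mono-culture the level of Krt8 was 0.0914 CPM (2 counts) in replicate 4 and 0 in the other libraries, which meets the rule for a library apart from its group. With 3 libraries at 0 any count in the fourth would meet it, so nothing is read from it. This was the 1 case among 34 groups of 4 libraries of Palmd, Nkx6-3, Krt8 and Krt18 that were examined, against 1.7 such cases by chance (about 1 in 20). In that library Palmd and Nkx6-3 had 0 counts.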

How the results depend on the processing

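The difference of Palmd among the 7 clones passed in all 45 alternative fits (adjusted p from 6.76e-06 to 0.00659), and that of Nkx6-3 in none (0.0965 to 0.576). The higher Palmd with KPC1 (1.12) passed at an adjusted p threshold of 0.1 (1.12, adjusted p = 0.0603) and without single libraries ran from 0.72 to 1.37 (adjusted p 0.0246 to 0.324). Over the other alternatives its adjusted p ran from 0.00391 to 0.114. Without single libraries 5 to 8 pairs were called in Palmd and 0 to 1 in Nkx6-3. With limma on log2(RPKM + 0.1), 1 pair was called in Nkx6-3, Clones K and T (log2 difference -1.76, adjusted p = 0.0485). The cause was not tested. Under the other alternatives without a block 6 to 9 pairs were called in Palmd. The 9 relations and 4 ratios kept their direction and side of the threshold in every alternative. Leaving out 1 library moved the mean of a line by over 1.5 times in 2 of 32 cases for Palmd (Clones K and M, replicate 3) and 2 of 32 for Nkx6-3 (Clone M, replicate 3, and Clone V, replicate 4), by at most 1.90-fold. A floor of 1 count raises each bound on the fold, by construction. A minimum of 10 counts in every library removes both genes and gave no value.

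Replicate numbers are shared by all groups, but were not used as pairs in the main fit, since not all same-numbered co-culture libraries correlated over 0.1. Of 112 such pairs, 63 correlated over 0.1 in their deviations (median 0.143, lowest -0.519), against 89 of 336 pairs with other numbers (median -0.044). Of 32 libraries, 23 correlated best with their own number. The titles of the co-culture libraries run in order of replicate number, with those of the mono-culture after them. Differences between replicate numbers therefore count as error in the fit without a block. With replicate number as a block, 14 pairs were called in Palmd, 7 of them without Clone V (Clone T above Clones E, K, M and N, and KPC1 above Clones E, M and N), and none in Nkx6-3, the KPC1 difference in Palmd was 1.18 and passed (adjusted p = 0.00391), and the r with the keratins were 0.926 to 0.947. The r with the fibroblast sum, which did not pass in either fit, moved to -0.027 for Palmd and -0.100 for Nkx6-3. The fewest counts were 11 for Palmd, with Clone V, and 10 for Nkx6-3, with Clone K.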
